A study of Mus musculus with 12 samples.

Results

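The 10 genes described here are markers of the endothelial cells that line blood vessels, measured in mouse kidneys: Kdr, Flt1, Tek, Pecam1, Cdh5, Emcn, Plvap, Ehd3, Egfl7 and Sox17. They were picked out by name, through their NCBI Gene numbers, with earlier results of these data known. They are 10 of the 27179 genes in the table, and all 10 were among the 14972 genes that reached a TPM (transcripts per 1000000) of at least 1 in at least 3 libraries and so were tested. In RefSeq GRCm38.p6, Kdr lies at chr5:75932827-75979072, Flt1 at chr5:147561604-147726438, Tek at chr4:94739086-94874976, Pecam1 at chr11:106654213-106715281, Cdh5 at chr8:104101613-104144504, Emcn at chr3:137341062-137431069, Plvap at chr8:71497753-71511806, Ehd3 at chr17:73804841-73832093, Egfl7 at chr2:26581083-26592682 and Sox17 at chr1:4490928-4497426.

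RNA of whole flash-frozen kidneys was sequenced from 12 mice in 4 groups of 3. FAN1KO mice carried γGT1-Cre;Fan1-/-, in which the γGT1 promoter drives Cre recombinase in proximal tubule cells and the DNA repair nuclease Fan1 is deleted there, so the endothelium itself was not the target of the deletion. Cisplatin, a platinum drug that crosslinks DNA, was injected into the peritoneum of wild-type and FAN1KO mice at 2 mg/kg weekly for 5 weeks, and the control mice of both genotypes received saline. All mice were 8 to 12 weeks old and of Mixed background. In whole-kidney RNA, fewer endothelial cells and less RNA in each cell cannot be told apart.

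Endothelial cells carry vascular endothelial growth factor (VEGF) and angiopoietin signals through a few receptor tyrosine kinases. Kdr (VEGFR2) is the main signalling receptor for VEGF-A, Flt1 (VEGFR1) binds the same ligand tightly with weaker signalling, and Tek (Tie2) is the receptor of the angiopoietins. Cdh5 (VE-cadherin) and Pecam1 join neighbouring endothelial cells, Emcn (endomucin) is a sialomucin of capillaries and veins, Plvap forms the diaphragms of fenestrated capillaries, Ehd3 is an endocytic trafficking protein of the glomerular endothelium, Egfl7 is a secreted endothelial protein, and Sox17 is a transcription factor of arterial endothelium. In the kidney, podocytes and tubule cells make VEGF-A, and the fenestrated glomerular and peritubular capillaries depend on it.

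The bases upstream of the start are shown for Emcn and for Egfl7, because the values below set these members apart. In the fit to all 12 libraries, Emcn was called lower in FAN1KO kidneys under cisplatin with a covariate for Y-linked RNA, as given below. It was not called without that covariate (limma, adjusted p = 0.301). Egfl7 was called in neither. Both come from RefSeq (GRCm38.p6) and are written 5′ to 3′ on the gene's strand, up to the first annotated exon, with each ETS core (GGAA, or TTCC on the other strand) in capitals. ETS factors are regulators of endothelial genes.
Emcn (chr3:137340828-137341061, + strand, 234 bases): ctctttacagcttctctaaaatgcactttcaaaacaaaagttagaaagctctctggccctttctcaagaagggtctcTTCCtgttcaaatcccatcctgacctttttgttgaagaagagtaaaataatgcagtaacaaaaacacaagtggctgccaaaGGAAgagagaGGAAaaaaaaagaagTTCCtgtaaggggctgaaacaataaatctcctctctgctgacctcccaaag
Egfl7 (chr2:26580833-26581055, + strand, 223 bases): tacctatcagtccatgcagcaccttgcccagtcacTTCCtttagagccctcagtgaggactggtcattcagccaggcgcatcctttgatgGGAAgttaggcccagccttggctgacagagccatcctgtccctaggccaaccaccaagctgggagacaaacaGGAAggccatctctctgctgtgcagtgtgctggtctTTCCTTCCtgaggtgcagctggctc
Emcn held 4 cores. The table has 3 starts for Egfl7, and the 250 bases before them held 5, 3 and 1 cores. The one shown is the outermost, with 5. Of 32851 promoters in the RefSeq table, 93.5% held at least 1 core in the 250 bases before the start, with a median of 3, while 33.4% held at least 4 and 18.0% at least 5. Emcn was above that median, and the starts of Egfl7 were above, at and below it. The part of ETS factors in the levels of these 2 genes was not tested. The table matched 6 of the 10 genes (Kdr, Flt1, Emcn, Ehd3, Tek and Egfl7). The 250 bases held 4 cores before Kdr, 4 before Flt1, 3 before Ehd3 and 2 before Tek. The SOX motif AACAAT (or ATTGTT), which cannot share more than 2 bases with an ETS core, was found before Emcn and Tek, and in 9.42% of all promoters. These matches are letters in a window and not measured binding.

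The recovered depth was 37196347 to 82935837 reads a library, and the 10 genes had between 125 and 8226 reads each in every library, so counting error was small beside the spread between mice. The labels do not give the sex of the mice, and the study used both sexes. RNA from the Y chromosome (Uty, Kdm5d, Eif2s3y and Ddx3y) was present in replicate 3 of FAN1KO cisplatin, replicate 1 of wild-type cisplatin, replicate 1 of FAN1KO saline and replicate 3 of wild-type saline, 1 library a group (mean log2(TPM + 1) of 3.46 to 3.93), and was at most 0.10 in the other 8. Fan1 itself ranged over 1.98 to 3.80 TPM in wild-type and 1.17 to 2.28 in FAN1KO under saline, and over 2.33 to 3.57 and 1.54 to 3.51 under cisplatin, so the genotypes overlapped and whole-kidney Fan1 RNA did not check the labels. Mitochondrially encoded genes took 10.2% to 16.7% of the TPM in FAN1KO cisplatin kidneys and 18.3% to 22.7% in the others. As genes of kidney cells, the 6 proximal tubule genes summed to between 1234 and 5075 TPM a library, and the 6 podocyte genes to between 46.6 and 240. None of these, nor of 24 further pan-endothelial genes, was at 0 in every library. A few reads are enough for that, so it does not check the kidney label.

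The libraries with Y-linked RNA were the lowest of their group for all 10 endothelial genes in all 4 groups. They held 0.182 to 0.745 of the mean of the other 2 libraries of the same group. A library with Y-linked RNA was the lowest in each of the 4 groups for 41.5% of all 14972 genes tested, and for 23 of the 23 further pan-endothelial genes tested, 8 of 8 genes of mural cells and 6 of 6 of podocytes, but for 0 of 6 of the proximal tubule. Because 1 such library stood in each group, the groups were balanced for it, and the spread it added entered the error of each comparison. Results are given without a covariate first and then with the mean Y-linked level as a covariate, and values are given within each kind of library.

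The 2 VEGF receptors and the angiopoietin receptor were at their lowest in FAN1KO kidneys after cisplatin. Under saline, Kdr was 16.9, 15.4 and 4.53 TPM in wild-type kidneys and 5.08, 25.8 and 26.8 in FAN1KO. Under cisplatin it was 4.87, 22.2 and 10.8 in wild-type and 6.32, 2.64 and 1.70 in FAN1KO. The 2 FAN1KO cisplatin libraries without Y-linked RNA were below all 6 others without it, and the third, at 1.70 TPM, was below the other 3 with it. The group means under cisplatin were 12.6 ± 8.81 TPM in wild-type and 3.55 ± 2.44 in FAN1KO (SD, n = 3). Flt1 was 9.78, 9.73 and 3.61 TPM in wild-type saline, 3.80, 16.0 and 13.5 in FAN1KO saline, 3.24, 13.7 and 8.08 in wild-type cisplatin, and 6.76, 5.36 and 2.41 in FAN1KO cisplatin. The same separation held for Flt1, by a smaller step. Tek was 14.99, 13.6 and 4.22 TPM in wild-type saline, 3.41, 19.5 and 14.1 in FAN1KO saline, 4.45, 18.7 and 11.5 in wild-type cisplatin, and 6.88, 3.64 and 2.01 in FAN1KO cisplatin. For Tek too, the FAN1KO cisplatin libraries were the lowest of their kind. The share of all genes that were lowest in this way was not taken, for these genes or for those below.

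The junction and surface proteins had the same shape. Pecam1 was 30.01, 27.7 and 8.72 TPM in wild-type saline, 9.78, 40.6 and 32.0 in FAN1KO saline, 8.99, 40.9 and 24.9 in wild-type cisplatin, and 19.3, 12.3 and 5.31 in FAN1KO cisplatin. Cdh5, the lowest of the 10 by its mean over 12 libraries, was 7.36, 7.04 and 1.92 TPM, then 2.04, 12.4 and 9.56, then 2.35, 10.5 and 6.29, and then 3.73, 2.29 and 1.41 in the same order of groups. Emcn, the capillary sialomucin, was 66.8, 50.6 and 18.4 TPM in wild-type saline, 17.0, 74.1 and 68.0 in FAN1KO saline, 18.8, 75.3 and 47.6 in wild-type cisplatin, and 34.8, 20.2 and 9.79 in FAN1KO cisplatin. For Pecam1, Cdh5 and Emcn the 2 FAN1KO cisplatin libraries without Y-linked RNA were again below the 6 others of that kind, and the library with Y-linked RNA was below its 3 counterparts.

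Genes of the specialised kidney capillaries followed. Plvap, of the fenestral diaphragm, was the highest of the 10, at 116, 105 and 44.2 TPM in wild-type saline, 30.5, 171 and 148 in FAN1KO saline, 26.6, 184 and 109 in wild-type cisplatin, and 80.1, 50.2 and 17.7 in FAN1KO cisplatin. Ehd3, of the glomerular endothelium, was 27.8, 20.1 and 6.41 TPM in wild-type saline, 8.22, 27.4 and 27.4 in FAN1KO saline, 9.38, 29.3 and 21.5 in wild-type cisplatin, and 14.6, 7.25 and 4.75 in FAN1KO cisplatin. For both, the FAN1KO cisplatin libraries were the lowest of their kind. Here too no share of all genes was taken for this.

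Egfl7 and Sox17 had another shape. Egfl7 was 51.9, 44.3 and 20.9 TPM in wild-type saline, 20.8, 54.4 and 48.1 in FAN1KO saline, 21.0, 71.1 and 52.7 in wild-type cisplatin, and 69.9, 53.3 and 24.8 in FAN1KO cisplatin. Its FAN1KO cisplatin libraries lay among or above the other groups. Sox17 was 8.58, 8.84 and 4.07 TPM in wild-type saline, 3.23, 11.7 and 7.35 in FAN1KO saline, 3.44, 9.52 and 8.94 in wild-type cisplatin, and 8.66, 6.01 and 5.46 in FAN1KO cisplatin. The group means of Egfl7 under cisplatin were 48.3 ± 25.3 TPM in wild-type and 49.3 ± 22.8 in FAN1KO, and those of Sox17 were 7.30 ± 3.36 and 6.71 ± 1.71 (SD, n = 3).

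**Figure D1:**
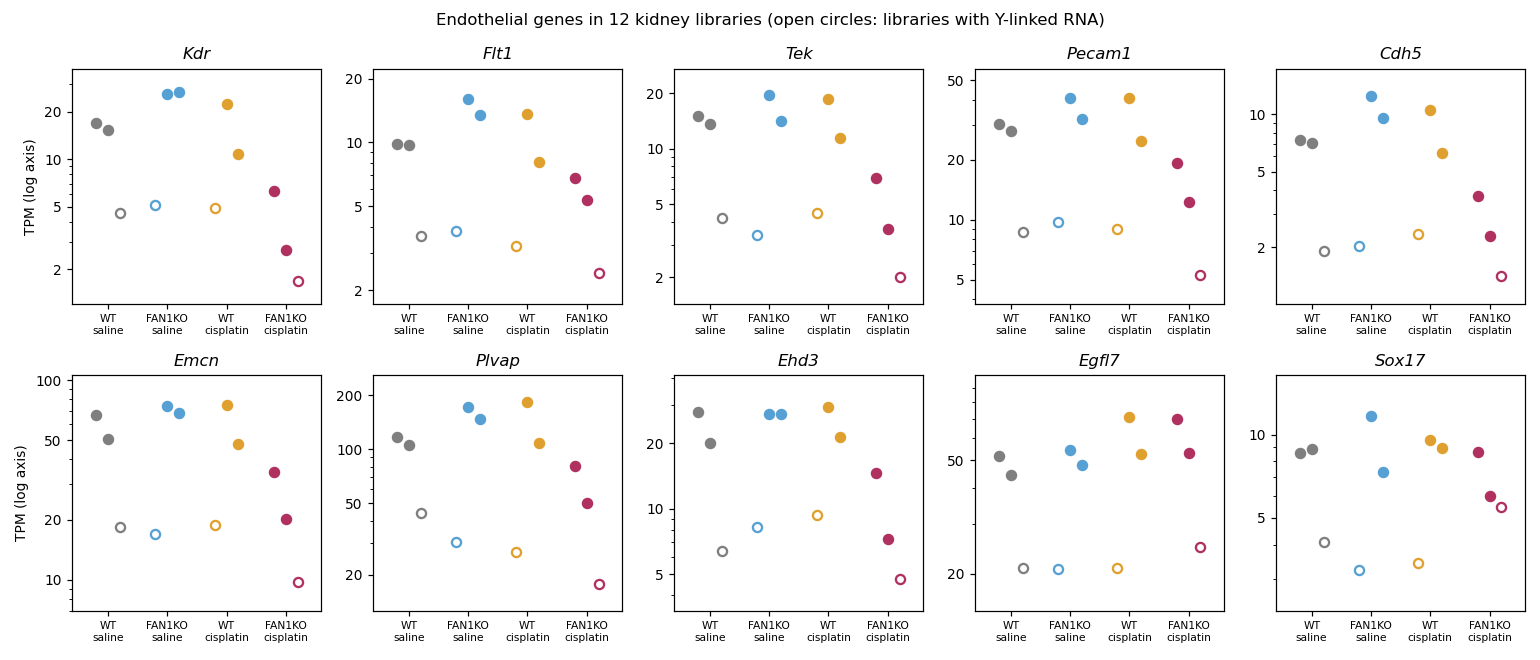
TPM of each of the 10 endothelial genes (vertical axes, log scale) in the 12 kidney libraries by group (horizontal axes), 1 point a library, with open circles for the 4 libraries with Y-linked RNA. Open circles are the lowest of their group throughout, and within each kind of library the FAN1KO cisplatin points are below the wild-type cisplatin points for all genes but Egfl7 and Sox17.

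TPM is per transcript length, so the levels of the 10 genes can be set side by side within a group. In wild-type saline kidneys the order of mean TPM was Plvap (88.6), Emcn (45.3), Egfl7 (39.0), Pecam1 (22.2), Ehd3 (18.1), Kdr (12.3), Tek (10.9), Flt1 (7.71), Sox17 (7.16) and Cdh5 (5.44), and the ranges of all neighbours overlapped. Egfl7 was below Emcn in both saline groups, next to it in wild-type cisplatin kidneys (48.3 and 47.3 TPM) and above it in FAN1KO cisplatin kidneys (49.3 and 21.6 TPM), where its mean equalled that of Plvap (49.3). Kdr stood above Tek, Flt1 and Sox17 in the other 3 groups and below them in FAN1KO cisplatin kidneys, at 3.55 TPM against 4.17, 4.84 and 6.71.

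The comparison of FAN1KO with wild-type kidneys under cisplatin addressed whether loss of Fan1 in the tubule was followed by another response to repeated injury. Of the 10 genes, 9 had a fold change below 1, with a median log2 fold change of -0.96 against 0.25 for all genes tested. Without a covariate, 0 of 10 passed an adjusted p of 0.05 (limma, Benjamini-Hochberg), 0 had an unadjusted p under 0.05, 0 were called by voom on recovered reads, and the 3 FAN1KO values overlapped the 3 wild-type values for each gene. Among all genes, 4.37% were called lower. With the Y-linked covariate, 8 of 10 were lower (all but Egfl7 and Sox17), where 8.60% of all genes were called lower. The fit to the 8 libraries without Y-linked RNA alone, with 2 a group, also called 8. With the covariate and 1 library left out at a time, 5 to 8 were called, with 5 without wild-type cisplatin 2 or FAN1KO cisplatin 2. The share of all genes called was not taken for the 8 libraries or with a library left out, so those counts cannot be set against it.

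Kdr differed by the most. Its log2 fold change was -1.50 ± 0.71 (SE, adjusted p = 0.150) without the covariate and -1.45 ± 0.33 (adjusted p = 0.00517) with it. The estimate hardly moved, while the standard error fell. The other 7 genes called with the covariate were Tek (-1.16 ± 0.27, adjusted p = 0.00542), Ehd3 (-1.05 ± 0.26, adjusted p = 0.00736), Emcn (-1.01 ± 0.23, adjusted p = 0.00537), Cdh5 (-0.93 ± 0.27, adjusted p = 0.0177), Plvap (-0.89 ± 0.26, adjusted p = 0.0169), Pecam1 (-0.84 ± 0.21, adjusted p = 0.00737) and Flt1 (-0.54 ± 0.19, adjusted p = 0.0403), as log2 fold change ± SE. The adjusted p of these 7 without the covariate ran from 0.216 (Tek) to 0.501 (Flt1). The call for Flt1 was the least firm of the 8, since with the covariate it held in 4 of the 12 fits that left out 1 library, whereas those for Kdr, Tek, Ehd3, Emcn and Pecam1 held in 12 of 12 and those for Cdh5 and Plvap in 10 of 12.

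Egfl7 differed by 0.08 ± 0.55 without the covariate and 0.11 ± 0.14 with it (log2, 95% confidence interval -0.20 to 0.42, adjusted p = 0.521), and by -0.21 under median-ratio scaling. Sox17 differed by -0.03 ± 0.45 and by -0.00 ± 0.23 (log2, interval -0.50 to 0.50, adjusted p = 0.996), and by -0.27 under median-ratio scaling. Median-ratio scaling moves the median of all genes from 0.25 to -0.01 and that of the 10 endothelial genes from -0.96 to -1.20, so the lower levels of the other 8 were larger on that scale.

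Within each kind of library the same 8 genes were lower in FAN1KO. The mean of the 2 FAN1KO cisplatin libraries without Y-linked RNA was 0.271 (Kdr) to 0.557 (Flt1) of the wild-type mean for these 8, and the library with Y-linked RNA was 0.348 (Kdr) to 0.745 (Flt1) of its counterpart. Such a fall without overlap in both kinds of library was seen for 12.8% of all genes tested. Egfl7 was at 0.996 and 1.18 of wild-type in the 2 kinds of library, and Sox17 at 0.794 and 1.59. In the libraries without Y-linked RNA, Sox17 was lower in FAN1KO without overlap (8.66 and 6.01 against 9.52 and 8.94 TPM). Between the libraries with it, Sox17 was higher in FAN1KO (5.46 against 3.44 TPM).

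Cisplatin against saline asked whether the drug itself went with the lower levels. In FAN1KO kidneys the median log2 fold change of the 10 genes was -1.12, against 0.37 for all genes. Without a covariate Kdr alone of the 10 was lower (-1.99 ± 0.71, adjusted p = 0.0466), where 4.90% of all genes were called lower, and this call was lost without the filter, without the mean-variance trend and in 8 of the 12 fits that left out a library. With the covariate 8 of 10 were lower, again all but Egfl7 and Sox17, against 8.16% of all genes. Kdr then differed by -1.94 ± 0.33 (adjusted p = 0.000617), and the others by -0.90 (Flt1) to -1.16 (Tek) with adjusted p from 0.00202 (Emcn) to 0.00514 (Plvap). Each of the 8 held in 12 of 12 fits with the covariate that left out 1 library. The 8 were lower in both kinds of library without overlap, as were 11.0% of all genes. Egfl7 differed by 0.29 ± 0.14 (adjusted p = 0.0923) with the covariate and by -0.18 under median-ratio scaling. With the covariate it passed in 2 of the 12 fits that left out 1 library (lowest adjusted p = 0.027).

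In wild-type kidneys, cisplatin against saline gave a median log2 fold change of 0.04 for the 10 genes and a range from -0.01 to 0.23. None passed: 0 of 10 without the covariate (limma), where 0.0601% of all genes were called in either direction, 0 with it, where 0.387% were, 0 by an unadjusted p under 0.05 and 0 by voom. The interval for Kdr with the covariate was -0.70 to 0.77. FAN1KO against wild-type under saline gave a median of 0.21 and a range from -0.03 to 0.49. Again 0 of 10 passed without the covariate (0.768% of all genes in either direction), 0 with it (2.81%), 0 by an unadjusted p under 0.05 and 0 by voom. Kdr was the highest of the 10 there, at 0.53 ± 0.33 with the covariate (adjusted p = 0.467). The saline libraries without Y-linked RNA, 2 a group, were higher in FAN1KO without overlap for some genes. These were Kdr (ratio of means 1.63), Cdh5 (1.53), Flt1 (1.51), Plvap (1.44), Pecam1 (1.26) and Emcn (1.21). Ehd3, Tek, Egfl7 and Sox17 overlapped. Between the libraries with Y-linked RNA the ratio ran from 0.69 (Plvap) to 1.28 (Ehd3). The share over all genes was not taken. These saline values also enter cisplatin against saline in FAN1KO and the interaction.

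The genotype by treatment interaction tested whether cisplatin changed the genes differently in the 2 genotypes. Without a covariate 0 of 10 passed (limma), as 0 did by an unadjusted p under 0.05 and by voom, and 1.02% of all genes were called below 0. With the covariate 8 of 10 were below 0, against 4.31% of all genes. They were Kdr (-1.98 ± 0.47, adjusted p = 0.0112), Cdh5 (-1.34 ± 0.39, adjusted p = 0.0254), Ehd3 (-1.32 ± 0.36, adjusted p = 0.0208), Tek (-1.25 ± 0.38, adjusted p = 0.0306), Emcn (-1.20 ± 0.33, adjusted p = 0.0204), Pecam1 (-1.14 ± 0.29, adjusted p = 0.0158), Plvap (-1.11 ± 0.37, adjusted p = 0.0428) and Flt1 (-0.96 ± 0.27, adjusted p = 0.0250). The 8 libraries without Y-linked RNA alone called 5 of them. Leaving out 1 library at a time with the covariate called 4 to 8: 4 without FAN1KO saline 2 or FAN1KO saline 3, and 5 without wild-type saline 2, wild-type saline 3, wild-type cisplatin 1 or wild-type cisplatin 2. Here too the share of all genes was not taken for the 8 libraries or with a library left out.

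**Figure D2:**
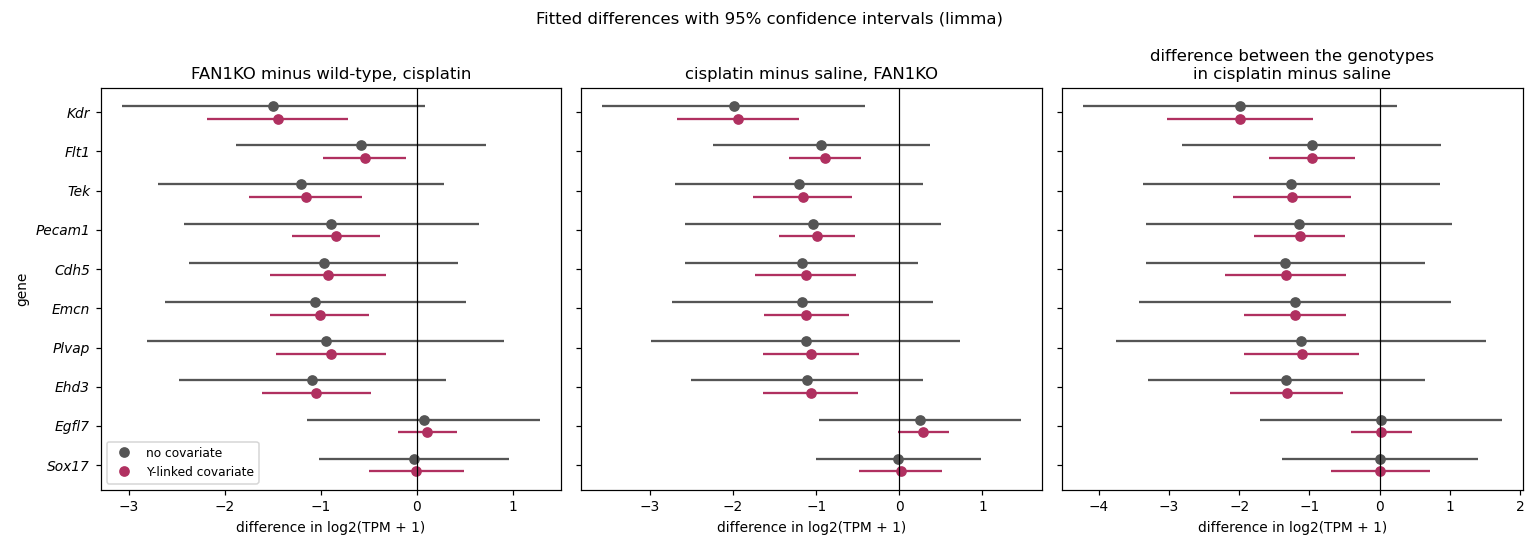
Fitted differences in log2(TPM + 1) (horizontal axes) for the 10 endothelial genes (vertical axis), in 3 comparisons, with 95% confidence intervals from limma without a covariate (grey) and with the mean Y-linked level as a covariate (red). The points nearly coincide while the red intervals are shorter, and those of 8 genes lie below 0 in all 3 panels.

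The 10 genes moved together from library to library. Over the 12 libraries the correlation (Pearson's r) of their log2 values ran from 0.58 to 0.991 over the 45 pairs, with a median of 0.954, and for deviations from the group means the median was 0.976. These points share the libraries and their Y-linked RNA, so the values are a description. The 5 other genes whose pattern was nearest to the mean of the 10, among 10605 with a mean TPM of at least 5, were Mmrn2 (r = 0.996), Ltbp4 (r = 0.993), Tie1 (r = 0.993), Plpp1 (r = 0.993) and Ptprb (r = 0.992).

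Since they moved together, each gene was also read against the mean log2(TPM) of the 10 in its own library, which removes a shift that all share. This scale has no 1 added to the TPM, unlike the fits, so it weighs differences at low TPM more. Under cisplatin Kdr was at -0.64 ± 0.20 in wild-type and -1.50 ± 0.27 in FAN1KO (SD, n = 3) on this scale. Kdr, Tek, Emcn and Cdh5 were lower in FAN1KO without overlap, by 0.86, 0.49, 0.17 and 0.30 in the order named. Egfl7 (1.39 ± 0.14 and 2.39 ± 0.17), Sox17 (-1.30 ± 0.32 and -0.39 ± 0.51) and Flt1 (-1.21 ± 0.06 and -0.96 ± 0.20) were higher without overlap. Pecam1, Plvap and Ehd3 overlapped. The FAN1KO cisplatin values of Kdr, Tek and Emcn were below those of all 9 other libraries, and those of Egfl7 and Sox17 above. Of all genes read against the same mean, 0.315% were lower and 32.1% higher without overlap. Those shares are set by the lower mean of the 10 genes in FAN1KO cisplatin kidneys, and the 10 values of a library sum to 0, so nothing is read from the count of 4 or of 3 against them. The exact permutation p of each of the 7 was 0.1 (two-sided), the smallest that 3 against 3 can give, and 0.143 after adjustment over the 10 genes.

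**Figure D3:**
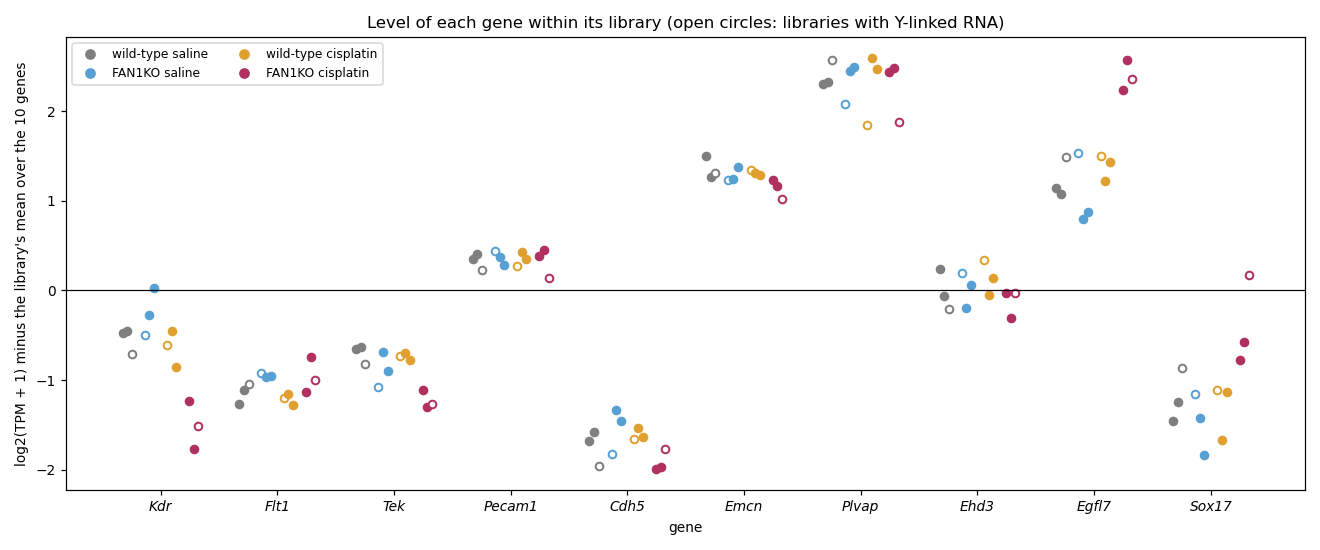
Level of each of the 10 genes (horizontal axis) relative to the mean of the 10 in the same library (vertical axis), 1 point a library, coloured by group, with open circles for libraries with Y-linked RNA. The values plotted are log2(TPM) with no 1 added, although the axis label reads log2(TPM + 1). In FAN1KO cisplatin kidneys Kdr and Tek sit below, and Egfl7 and Sox17 above, every other library.

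Ratios between related genes need no scaling between libraries. The pairs were chosen with the values of these genes known, so they are a description with no test. Kdr over Flt1, the 2 VEGF-A receptors, was 0.93, 0.49 and 0.70 in FAN1KO cisplatin kidneys and 1.25 to 1.98 in the other 9. Tek over Tie1, its partner receptor, was 0.40, 0.36 and 0.38 against 0.53 to 0.76. Egfl7 over Pecam1 was 3.61, 4.34 and 4.68 against 1.34 to 2.40, and Sox17 over Sox18, a related transcription factor of endothelium, was 1.12, 1.88 and 2.25 against 0.33 to 0.66. In these 4 of the 6 ratios computed, the 3 FAN1KO cisplatin libraries stood apart from the other 9, those with Y-linked RNA included. The ratio of Ehd3 over Plvap was 0.14 to 0.27 in FAN1KO cisplatin kidneys and 0.14 to 0.35 in the others, and overlapped. Vegfa over Kdr overlapped too, at 11.7, 23.8 and 32.7 against 4.03 to 20.3. Egfl7 overlaps Mir126a and Mir126b, Kdr overlaps Gm32727, Flt1 Gm35383, Emcn Gm38650, Cdh5 Gm29682, and Plvap Gtpbp3 and Gm46041, and whether the counting used strand is not given in the sources used here, so reads of these pairs may be shared.

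**Figure D4:**
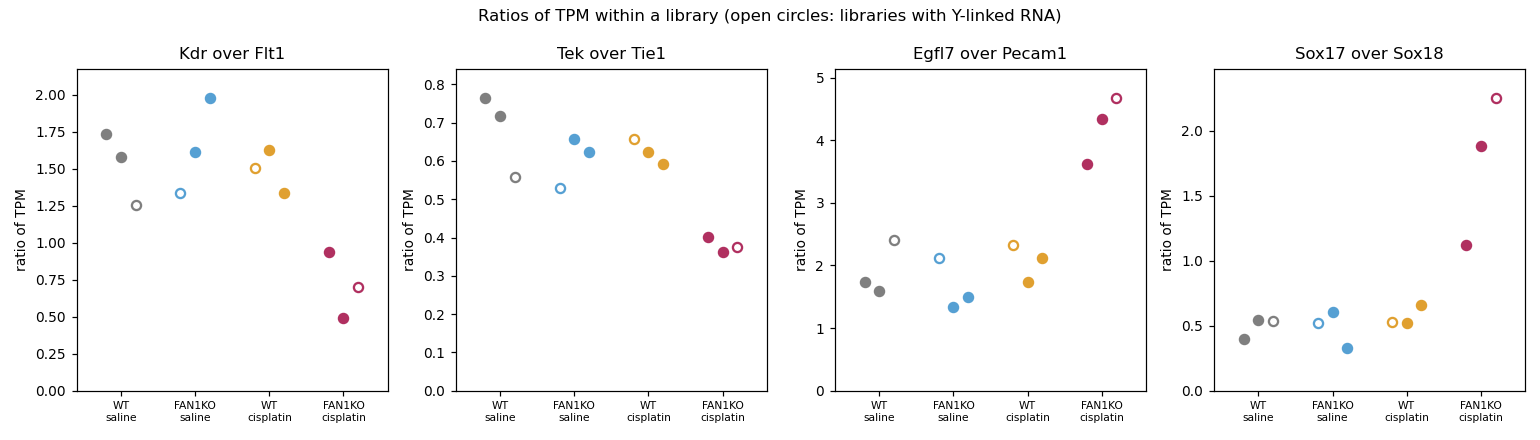
Ratios of TPM within a library (vertical axes, from 0) by group (horizontal axes), 1 point a library, open circles for libraries with Y-linked RNA. The 3 FAN1KO cisplatin points lie outside the range of the other 9 libraries in all 4 panels, below it for Kdr over Flt1 and Tek over Tie1 and above it for the others.

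Of the 24 further pan-endothelial genes, 23 were tested. In FAN1KO against wild-type under cisplatin their median log2 fold change was -0.37 and 17 were below 0. None was called without the covariate (limma), where 4.37% of all genes were called lower. With it 7 were lower, where 8.60% of all genes were, and 1 was higher. These shares also apply to the lists below in this comparison. The share of all genes called higher was not taken, so counts of higher genes have no share beside them. Sox18 was 7.74, 3.19 and 2.43 TPM in FAN1KO cisplatin kidneys and 6.50, 18.3 and 13.5 in wild-type cisplatin (log2 fold change with the covariate -1.32 ± 0.26, adjusted p = 0.00254). Robo4, a guidance receptor that stabilises vessels, differed by -0.67 ± 0.19 (adjusted p = 0.0156), Mmrn2, an endothelial matrix protein, by -0.74 ± 0.24 (adjusted p = 0.0252), and Icam2, an adhesion molecule, by -0.72 ± 0.23 (adjusted p = 0.0261), all with the covariate. Cisplatin against saline in FAN1KO kidneys gave 1 lower and 1 higher without the covariate, and 9 lower and 2 higher with it. Of all genes, 4.90% and 8.16% were called lower there in turn. Without the covariate the log2 fold changes of the list ran from -1.59 to 1.23 there. In the interaction 0 were called without the covariate, and 4 were below 0 and 1 above with it. Of all genes, 1.02% and 4.31% were called below 0 in the interaction in turn. The genes named had the smallest adjusted p between genotypes under cisplatin. Those called higher are not among them.

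Among the 9 ligands and co-receptors of the VEGF and angiopoietin pathways, Vegfa was lower without any covariate. It was 105, 107 and 86.6 TPM in wild-type saline, 98.8, 104 and 111 in FAN1KO saline, 98.9, 105 and 114 in wild-type cisplatin, and 73.8, 62.7 and 55.4 in FAN1KO cisplatin. The FAN1KO cisplatin values were below all 9 others (log2 fold change under cisplatin -0.73 ± 0.12, adjusted p = 0.00330). Of the 9, 1 was lower and 0 higher without the covariate, and 3 were lower and 1 higher with it, with a median of -0.28 without it. The others were Vegfc (-0.51 ± 0.18, adjusted p = 0.0399) and Vegfd (-0.65 ± 0.17, adjusted p = 0.00986), ligands of the lymphatic receptor Flt4, which were lower, and the co-receptor Nrp1 (0.43 ± 0.14, adjusted p = 0.0243), which was higher. Vegfa is also made by tubule cells, and the 6 proximal tubule genes summed to 1234 to 2282 TPM in FAN1KO cisplatin kidneys and 3069 to 5075 in the others, with 4 of the 6 lower without a covariate and none at 0 in every library. The part of these cells in the Vegfa result was not tested.

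Of 10 arterial and Notch genes, 1 was lower without the covariate, and 2 were lower and 1 higher with it, with a median of -0.19 without it. Gja5, the connexin of arterial endothelium, was 1.75, 0.96 and 0.89 TPM in FAN1KO cisplatin kidneys and 2.97, 8.64 and 6.63 in wild-type cisplatin, and its highest value was below the lowest (1.93) of the other 9 libraries (log2 fold change -1.61 ± 0.45, adjusted p = 0.0276 without the covariate). With the covariate the Notch target Hey1 differed by -0.57 ± 0.17 (adjusted p = 0.0205) and the ligand Jag1 by 0.67 ± 0.21 (adjusted p = 0.0231). Dll4 differed by -0.50 ± 0.20 (adjusted p = 0.0587).

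Of 5 genes of activated endothelium, 2 were tested, the leukocyte adhesion molecules Icam1 and Vcam1. Both were higher in FAN1KO than in wild-type kidneys under cisplatin without a covariate. The selectins Sele and Selp and the chemokine receptor Ackr1 were too low to test, with group means of at most 0.254 TPM, and under cisplatin their means were 0.0739, 0.0919 and 0.0773 TPM in FAN1KO and 0.0949, 0.121 and 0.0967 in wild-type. Icam1 was 89.7, 82.6 and 60.2 TPM in FAN1KO cisplatin kidneys and 12.1, 28.3 and 25.3 in wild-type cisplatin (log2 fold change 1.84 ± 0.32, adjusted p = 0.00369), and Vcam1 was 84.5, 66.2 and 102 against 8.16, 37.6 and 35.3 (1.84 ± 0.57, adjusted p = 0.0397). In wild-type kidneys Vcam1 was also higher under cisplatin than under saline, by 2.53 ± 0.57 without the covariate (limma, adjusted p = 0.387) and 2.55 ± 0.41 with it (adjusted p = 0.0335). For Icam1 that difference was 0.75 ± 0.14 with the covariate (adjusted p = 0.0614). Neither gene is made by endothelium alone, and injured tubule cells and leukocytes also express them.

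**Figure D5:**
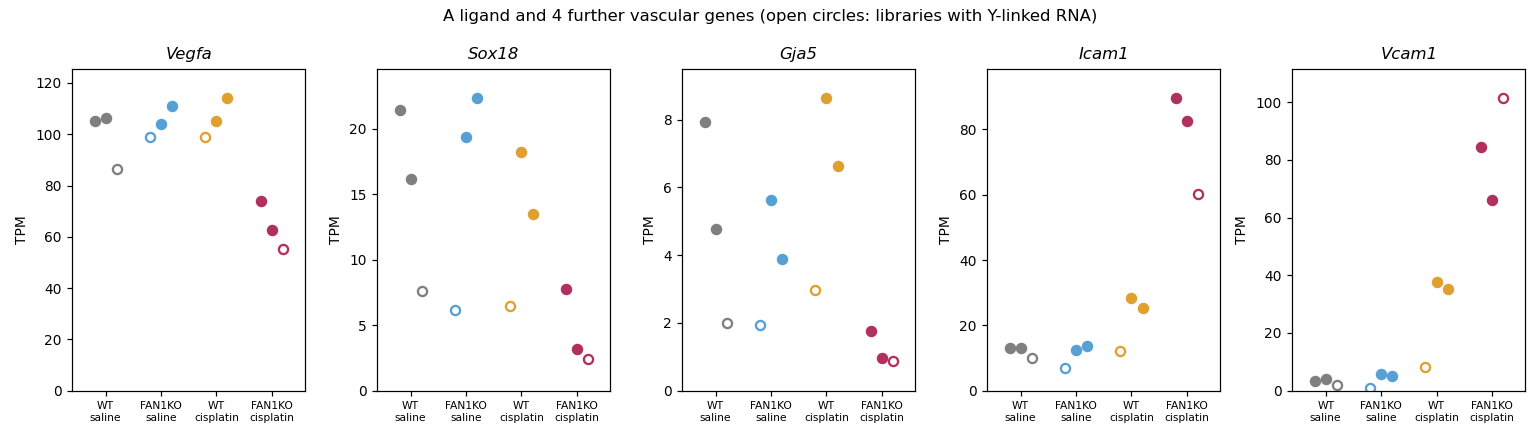
TPM (vertical axes, from 0) of Vegfa, Sox18, Gja5, Icam1 and Vcam1 in the 12 libraries by group (horizontal axes), 1 point a library, open circles for libraries with Y-linked RNA. Vegfa and Gja5 are lower, and Icam1 and Vcam1 higher, in the 3 FAN1KO cisplatin libraries than in every other library.

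Markers of neighbouring cell types in the same comparison of genotypes under cisplatin were read beside these. Of 8 mural cell genes (pericytes and smooth muscle), 0 were lower and 1, Cspg4, was higher without the covariate (0.81 ± 0.25, adjusted p = 0.0374), with a median of 0.20, and their sum was 121 to 242 TPM in FAN1KO and 85.7 to 246 in wild-type. Of 6 podocyte genes, 0 were called without the covariate and 0 with it, with a median of -0.00. Their sum was 240, 93.4 and 46.6 TPM in FAN1KO and 71.1, 192 and 150 in wild-type. Of 2 lymphatic genes tested, 0 were called without the covariate and 1, Pdpn, was higher with it (1.38 ± 0.11, adjusted p = 1.88e-05). Pdpn is also made by podocytes. Of 6 leukocyte genes tested 1, the macrophage lysosomal gene Cd68, was higher without the covariate (1.56 ± 0.51, adjusted p = 0.0499), and the list's sum was 43.9 to 97.9 TPM against 32.3 to 61.4. Of 2 platelet genes tested, 0 were called without the covariate and 2 were higher with it. Of 4 further tubule genes 1, Aqp2 of the collecting duct, was higher without the covariate (1.39 ± 0.45, adjusted p = 0.0455). With the covariate, 2 mural, 2 leukocyte and 2 further tubule genes were higher, and 0 of these lists were lower.

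Erythroid RNA was lower in the same libraries. All 4 erythroid genes tested were lower without a covariate, with a median log2 fold change of -7.33, and their sum was 6.56, 13.2 and 73.4 TPM in FAN1KO cisplatin kidneys and 535 to 6571 in the other 9. No member of the list was at 0 in every library. With the erythroid genes left out of the TPM, the log2 fold change of Kdr was -1.50 and those of the other 7 were -0.59 (Flt1) to -1.21 (Tek), close to the values with them. The part of blood content, of RNA quality and of the shares of other cell types in the endothelial values was not tested.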

How the data were processed

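The 10 members and the gene lists were chosen with earlier results of these data known. Groups and replicate numbers are those of the labels. The authors deposited their values as TPM, in a single table of 27179 genes by NCBI Gene number, where each library sums to 1000000. All of its columns were used (0 left out). The submitters' processing notes name mm10 and limma, and the aligner and annotation are not given in the sources used here. RefSeq (GRCm38.p6) named 25275 identifiers. Whole reads were worked back from the TPM of 26068 genes (tolerance 0.02 reads), for depth and for voom only.

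A gene was tested where 3 or more libraries had a TPM of 1 or more (14972 genes). The fit, by limma 3.58.1 (R 4.3.3), had 4 group means over 12 libraries, on log2(TPM + 1), moderated by empirical Bayes with a mean-variance trend. Fold changes on this scale understate those of low genes. The p-values set each difference against the spread between these mice. They were adjusted by Benjamini-Hochberg over all genes tested, with a threshold of 0.05. The alternatives were a pseudocount of 0.1, no filter, median-ratio scaling, the libraries of a comparison alone, a replicate block, no trend, a Y-linked covariate, mitochondrial or erythroid genes left out, each library left out, and an added fold of 1.5. The 8 libraries without Y-linked RNA, voom, and the covariate together with scaling or with a library left out were chosen after seeing the data. Named beside the 10 are up to 4 genes of each list, by the smallest adjusted p between genotypes under cisplatin, and the 5 nearest in pattern. Promoter windows were read with Python 3.11.15 and figures drawn with matplotlib 3.10.9. The fit and the recovery of reads were tested on simulated data.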

Additional observations from a re-analysis of the deposited data

Results flagged for a closer look

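The response to cisplatin differed between the genotypes for 8 of the 10 endothelial genes by the interaction term of the fit with the Y-linked covariate, which was planned as an alternative: Pecam1 (-1.14), Kdr (-1.98), Flt1 (-0.96), Emcn (-1.20), Cdh5 (-1.34), Ehd3 (-1.32), Plvap (-1.11) and Tek (-1.25), as the difference in log2 fold change of FAN1KO minus wild-type. With the covariate, 4.31% of all genes tested were called below 0. Leaving out 1 library at a time with the covariate called 4 to 8 of the 10. Cdh5, Plvap and Tek held in 6 of those 12 fits each. The libraries without Y-linked RNA alone called fewer than the covariate did. Without the covariate 0 of the 10 passed. Why the libraries with Y-linked RNA were low for these genes was not tested.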

How the results depend on the processing

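Replicate numbers name different mice. The mean correlation of the deviations of same-numbered libraries was -0.24 between genotypes under cisplatin and -0.14 between treatments in FAN1KO, with 1 of 3 pairs over 0.1. It was -0.21 between genotypes under saline and -0.18 between treatments in wild-type, where single pairs reached 0.51 and 0.60. In each of these comparisons the libraries with Y-linked RNA carried different replicate numbers. The correlations therefore cannot show whether a shared number also marks a shared batch. With the replicate block the calls went from 1 to 0 for cisplatin against saline in FAN1KO (Kdr, adjusted p = 0.0574), and the counts stayed at 0 in the other 4 comparisons.

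For genotype under cisplatin, members called went from 0 to 8 with the Y-linked covariate, with the covariate and median-ratio scaling together, and in the 8 libraries without Y-linked RNA. For cisplatin against saline in FAN1KO the count of 1 became 8 under those 3 settings and 0 without the filter, without the mean-variance trend, in the 6 libraries of the comparison alone and by voom. Leaving out a library gave 0 to 2, with 2 only without FAN1KO saline 1 and 0 without either wild-type saline 1 or 2, FAN1KO saline 2 or 3, wild-type cisplatin 3, or any FAN1KO cisplatin library. For the interaction the count of 0 became 8, 8 and 5 in the order first given. Apart from the main fit, the share of all genes called was taken only for the covariate alone, so the other counts have no share beside them.

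Egfl7 and Sox17 turned sign, each near 0. For genotype under cisplatin Egfl7 (0.08) became -0.21 with scaling and with the covariate and scaling, -0.02 without mitochondrially encoded genes, and -0.43 to 0.50 as libraries were left out. Sox17 (-0.03) became 0.07 by voom and -0.43 to 0.19 as libraries were left out. For treatment in FAN1KO Egfl7 (0.25) became -0.18 with scaling, -0.19 with the covariate and scaling, and -0.17 to 0.67 as libraries were left out. Sox17 (-0.01) became 0.01 with a pseudocount of 0.1 and by voom, 0.02 with the covariate, and -0.44 to 0.35 as libraries were left out. The interaction of Egfl7 (0.02) became -0.31 with scaling, -0.35 with the covariate and scaling, -0.08 without mitochondrially encoded genes, -0.09 in the 8 libraries, and -0.48 to 0.44 as libraries were left out. That of Sox17 (0.003) became -0.28 with scaling, -0.30 with the covariate and scaling, -0.40 in the 8 libraries, and -0.42 to 0.37 as libraries were left out. The cause was not tested. The median of the 10 in wild-type kidneys (0.04 for treatment) became -0.05 with scaling, -0.02 with the covariate and scaling, and -0.41 to 0.62 as libraries were left out. The median under saline (0.21) ran from -0.31 to 0.84, below 0 without wild-type saline 3, FAN1KO saline 2 or FAN1KO saline 3.

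With 3 mice a group and 1 low library in each, the intervals without a covariate were wide (-3.07 to 0.08 for Kdr between genotypes under cisplatin), so a p past the threshold there does not show that levels were alike. Depth was not the limit, since each member had at least 125 reads a library.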
